A study of Homo sapiens with 2 samples.

Results

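Voltage-gated calcium channels open when a cell depolarises and let calcium enter. In heart muscle the L-type channels carry the sustained current that triggers contraction, and the T-type channels open at more negative voltages and contribute to pacemaking and to the fetal heart. Each channel is built around a pore-forming alpha-1 subunit. High-voltage channels such as the L-type also carry an intracellular beta subunit, which helps bring the pore to the membrane, and an extracellular alpha-2-delta subunit, which raises surface levels and tunes gating. The genes described here are 7 of the 36601 genes measured. They were taken by symbol from the gene rows of the deposited matrix, and all 7 were found: the L-type pore genes CACNA1C and CACNA1D, the T-type pore genes CACNA1G and CACNA1H, the beta subunit gene CACNB2, and the alpha-2-delta genes CACNA2D1 and CACNA2D2. The other 19 voltage-gated calcium channel genes were counted alongside them.

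The cells were cardiomyocytes grown from H9, a human embryonic stem cell line, that carry the calcium reporter gCaMP6f. The cells were cryopreserved after 15 days of differentiation and then thawed into medium with insulin, serum and a ROCK inhibitor, stained with hashtag antibodies and pooled for droplet single-cell RNA sequencing. Every group below shares the line, the reporter, the day and the thaw, and all come from 1 line and 1 pool, so no p-value was computed. No label says which sample a hashtag marks, and hashtags are given as unassigned samples. The unit is the UMI, 1 counted RNA molecule, and levels are CPM, the UMIs of a gene per 1000000 gene UMIs of a group of cells. Square brackets hold exact 95% intervals, which cover counting error only.

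After filtering, 19309 cells with a median of 11733 UMIs remained. Clusters were named from marker lists, and the channel genes took no part in clustering. Cardiomyocyte-like cells numbered 14793 (76.6%). Their 12 cardiomyocyte markers summed to 46399 CPM, with none at 0. The other named classes held 2902 cells: 1543 stromal-like, 728 epithelial-like, 327 endoderm-like, 242 epicardial-like and 62 endothelial-like. In these classes the cardiomyocyte markers did not vanish. The median marker stood at 22.1% of its cardiomyocyte-like level in stromal-like, 7.65% in epithelial-like, 23.9% in endoderm-like, 8.35% in epicardial-like and 10.6% in endothelial-like cells, and the part of free RNA or doublets in these values was not tested. A further 1614 cells were shallow, at a median of 1913 UMIs each, and 13.2% of their UMIs in the median cell were mitochondrial. Their 12 cardiomyocyte markers summed to 43158 CPM, which met the marker rule for cardiomyocyte-like cells. They were kept apart from the named classes for their depth, with no cardiomyocyte marker among their leading genes.

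Cardiomyocyte-like cells were also gated by 3 transcription factor genes. HEY2 marks ventricular, NR2F2 atrial and SHOX2 pacemaker-type cardiomyocytes. The HEY2-positive group (at least 2 HEY2 UMIs) held 6741 cells, or 45.6% of cardiomyocyte-like cells. The NR2F2-positive group (at least 2 NR2F2 UMIs) held 1362 cells, or 9.21%, and the SHOX2-positive group (at least 1 SHOX2 UMI) held 165 cells, or 1.12%. Cells positive for HEY2 together with NR2F2 or SHOX2 (391) were left out, and 6134 met no gate. The SHOX2 gate set no limit on NR2F2 UMIs, so SHOX2-positive cells may also hold at least 2 of them. Median depth was 15970 UMIs in HEY2-positive, 9347 in NR2F2-positive and 8348 in SHOX2-positive cells. The 7 atrial markers, NR2F2 among them, summed to 126 CPM in HEY2-positive, 709 in NR2F2-positive and 951 in SHOX2-positive cells. The 6 pacemaker markers, SHOX2 among them, summed to 38.6, 126 and 594 CPM. SHOX2-positive cells were highest in both lists, but the gates fix part of these sums. HEY2-positive and NR2F2-positive cells held 0 SHOX2 UMIs by rule, and NR2F2 UMIs were limited in HEY2-positive and required in NR2F2-positive cells. Outside the gate genes, NR2F1, IRX4 and MYL2 followed the NR2F2 and HEY2 labels. Against HEY2-positive cells, the NR2F2-positive cells had NR2F1, a relative of NR2F2, at 57.8 times the level, and the ventricular genes IRX4 and MYL2 at 0.229 and 0.447 times. The 12 cardiomyocyte markers summed to 43231 CPM in HEY2-positive, 62544 in NR2F2-positive and 62234 in SHOX2-positive cells. The 9 stromal markers summed to 40.8, 60.4 and 90.9 CPM, with DCN, PDGFRB and THY1 at 0 in SHOX2-positive cells.

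Which channel genes were higher in the cardiomyocytes than in the rest of the preparation? CACNB2 led, at 4.65 times (4.31 to 5.02) its level in the other named classes. The T-type gene CACNA1G stood at 2.95 times (2.58 to 3.38) and the L-type gene CACNA1C at 2.87 times (2.63 to 3.14). The second L-type gene, CACNA1D, stood at 1.53 times (1.41 to 1.67). In what follows a gene counts as measured where its higher side has at least 10 CPM and 10 UMIs, and as higher or lower where the sides differ by at least 1.5 times. By that rule 4 of the 5 measured members were higher and 0 lower, against 12.7% higher and 25.1% lower of all 9442 genes measured. The median log2 ratio of the 5 members was 1.52, against -0.18 over all genes. Rescaling both sides by TMM, which aligns the bulk of genes, subtracts a shift from log2 ratios, here -0.40. The member ratios were then 6.13 for CACNB2, 3.89 for CACNA1G, 3.78 for CACNA1C and 2.02 for CACNA1D. With called doublets kept they were 2.85, 2.21, 2.17 and 1.42, the last under the threshold.

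**Figure D1:**
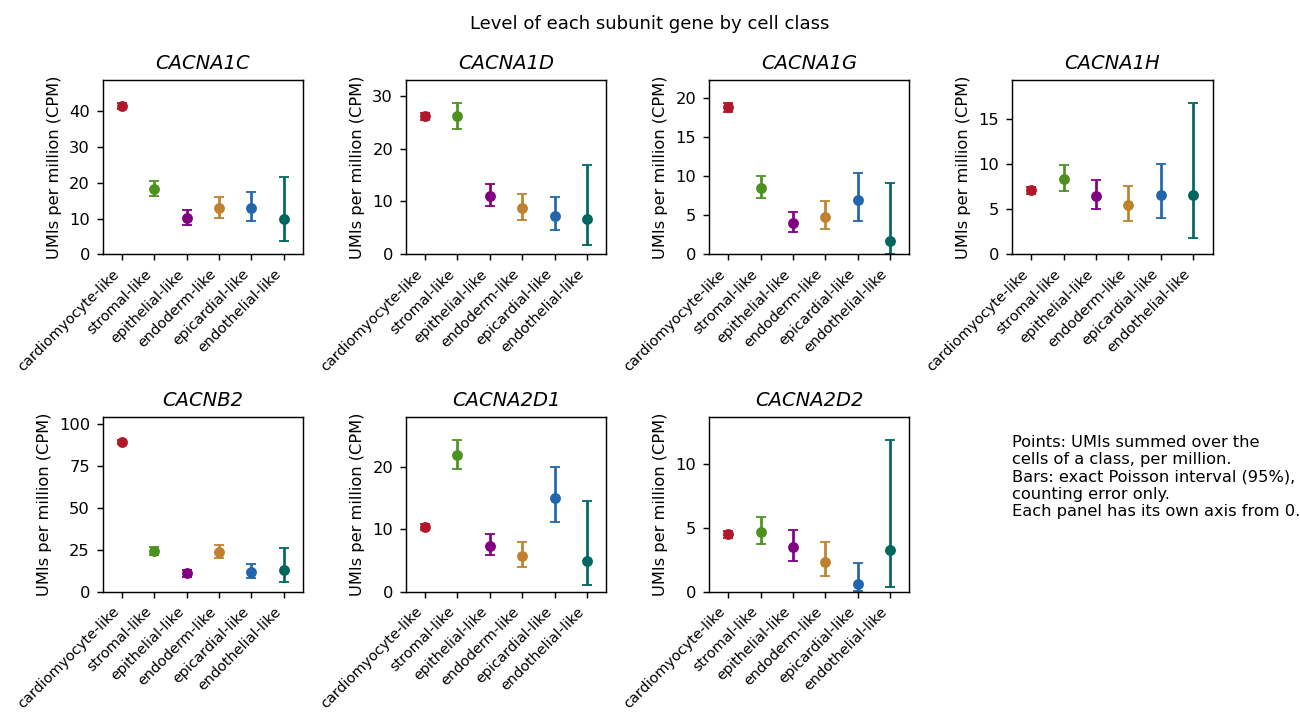
Level of each of the 7 calcium channel subunit genes (CPM) in cardiomyocyte-like cells and the 5 other named classes. Points are levels of the summed UMIs and bars exact Poisson intervals. CACNB2, CACNA1C and CACNA1G have their highest points in cardiomyocyte-like cells, CACNA2D1 in stromal-like cells, and CACNA1D is as high in stromal-like as in cardiomyocyte-like cells.

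CACNA1C encodes the main L-type pore of ventricular muscle. The gene lies on chromosome 12, chr12:1970786-2697950 on the plus strand of GRCh38 in GENCODE 29. It had 10349 UMIs in the analysed cells, and 34.7% of cells had at least 1. Its level was 41.6 CPM [40.8 to 42.5] in cardiomyocyte-like, 18.3 [16.3 to 20.5] in stromal-like, 12.9 [9.23 to 17.5] in epicardial-like, 12.8 [10.2 to 16.0] in endoderm-like, 10.2 [8.29 to 12.3] in epithelial-like and 9.88 [3.63 to 21.5] in endothelial-like cells. The 4 lowest classes had overlapping intervals, and cardiomyocyte-like cells stood clear of all 5. Cells were also thinned to 3000 UMIs each, which left out 402 shallower cardiomyocyte-like and 46 epithelial-like cells. Of the thinned cells, 11.6% of cardiomyocyte-like and 3.52% of epithelial-like cells had a CACNA1C UMI (38.9% and 12.0% unthinned, at median depths of 12714 and 13253 UMIs).

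CACNA1D encodes the L-type pore that opens at lower voltages and is known for pacemaking in the sinoatrial node. It spans chr3:53328963-53813733 on the plus strand and had 6843 UMIs, in 23.9% of cells. Its level in cardiomyocyte-like cells was 26.1 CPM [25.5 to 26.8]. Stromal-like cells were at the same level, 26.1 CPM [23.7 to 28.7], a ratio of 1.00 (0.904 to 1.10) that became 0.763 under TMM scaling. That equals 100% of the cardiomyocyte-like level, where the median cardiomyocyte marker stood at 22.1%. Next came epithelial-like cells at 11.1 CPM [9.10 to 13.3], endoderm-like at 8.73 [6.54 to 11.4], epicardial-like at 7.22 [4.57 to 10.8] and endothelial-like at 6.59 [1.80 to 16.9], 4 classes whose intervals overlapped.

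CACNA1G, the T-type pore gene at chr17:50561068-50627474 on the plus strand, had 4631 UMIs in 19.5% of cells. Its level was 18.9 CPM [18.3 to 19.4] in cardiomyocyte-like, 8.53 [7.18 to 10.1] in stromal-like, 6.90 [4.33 to 10.5] in epicardial-like, 4.78 [3.20 to 6.86] in endoderm-like and 3.99 [2.85 to 5.43] in epithelial-like cells. A single UMI was found in endothelial-like cells, 0.0874 times the cardiomyocyte-like level (0.00221 to 0.487). CACNA1H, the other T-type pore gene (chr16:1153121-1221772, plus strand), did not follow CACNA1G. It was under 10 CPM in every named class, between 5.44 CPM in endoderm-like and 8.41 in stromal-like cells, with 7.09 [6.74 to 7.45] in cardiomyocyte-like cells. The intervals of all 6 classes overlapped. Of the UMIs from the 2 T-type genes, CACNA1G supplied 72.7% [71.5 to 73.8] in cardiomyocyte-like, 50.4% [44.3 to 56.4] in stromal-like and 38.1% [28.8 to 48.1] in epithelial-like cells.

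CACNB2 encodes the main cardiac beta subunit and lies at chr10:18140677-18543557 on the plus strand. It was found in 52.3% of cells, with 20965 UMIs. Cardiomyocyte-like cells had 89.5 CPM [88.3 to 90.8]. Stromal-like cells had 24.3 [22.0 to 26.8] and endoderm-like cells 23.7 [20.0 to 27.9], followed by endothelial-like at 13.2 [5.69 to 26.0], epicardial-like at 11.9 [8.44 to 16.4] and epithelial-like at 11.0 [9.01 to 13.2]. These are 12.2% to 27.2% of the cardiomyocyte-like level, where the median cardiomyocyte marker stood at 7.65% to 23.9% in the same classes. After thinning, 22.7% of cardiomyocyte-like and 3.67% of epithelial-like cells had a CACNB2 UMI (61.4% and 12.4% unthinned).

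The alpha-2-delta genes behaved differently. CACNA2D1 lies on the minus strand at chr7:81946444-82443798. It was higher in stromal-like cells, at 21.9 CPM [19.7 to 24.3], than in cardiomyocyte-like cells, at 10.4 [9.94 to 10.8]. Epicardial-like cells had 15.1 CPM [11.1 to 20.0], a ratio of 1.45, and epithelial-like cells 7.38 [5.79 to 9.26], a ratio of 0.712, both short of the threshold. It was lower in endoderm-like cells, at 5.77 [4.02 to 8.02], and in endothelial-like cells, at 4.94 CPM. The endothelial-like value rests on 3 UMIs, a ratio of 0.477 (0.0983 to 1.40) whose interval spans 1. Over the 5 other classes together the cardiomyocyte-like ratio was 0.723 (0.657 to 0.797), short of the threshold. CACNA2D2, on the minus strand at chr3:50362799-50504244, was found in 5.49% of cells and stayed under 10 CPM in every class, with 4.48 [4.21 to 4.77] in cardiomyocyte-like and 4.69 [3.70 to 5.86] in stromal-like cells. Epicardial-like cells had 2 UMIs, a ratio of 0.140 (0.0169 to 0.507).

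Of the 5 other classes, stromal-like cells had the highest level of each of the 7 genes, with overlap in the intervals of some. Against cardiomyocyte-like cells, CACNA2D1 was higher at 2.12 times (1.89 to 2.37), 1 of 5 measured members against 25.4% of all genes. CACNB2, CACNA1C and CACNA1G were lower at 0.272, 0.439 and 0.452 times, 3 of 5 against 11.2%. In epithelial-like cells 4 of 5 measured members were lower and 0 higher, against 19.2% and 28.2% of all genes. The same 4 were lower and 0 higher in epicardial-like cells, against 21% and 22.4%. All 5 were lower in endoderm-like cells, where 17.3% of all genes were lower and 22.1% higher. All 5 were also lower in endothelial-like cells, against 30.9% lower and 24.8% higher. Those counts came from only 62 cells, and the CACNA2D1 interval reached above 1. TMM scaling subtracted 0.39 from these log2 ratios in stromal-like, 0.36 in epithelial-like, 0.24 in endoderm-like and 0.18 in both epicardial-like and endothelial-like cells. It changed 1 call, CACNA2D1 in epithelial-like cells, from 0.712 to 0.555 times. In the shallow cells kept apart, all 6 measured members were higher than in cardiomyocyte-like cells and 0 lower, against 46.2% and 23.6% of all genes, and TMM scaling (shift 0.94) put CACNB2 there at 0.979 times. The part of depth and mitochondrial share in that was not tested.

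The stromal-like class was made of 2 clusters that differed in these genes. One (cluster 7, 835 cells) was led by PLAT, COL3A1 and POSTN, and the other (cluster 10, 708 cells) by COL1A2, TCF21 and STMN2. CACNA1D was 36.8 CPM [32.5 to 41.6] in cluster 10 and 18.1 in cluster 7, a ratio of 2.04 (1.67 to 2.49). CACNA2D1 was 30.7 CPM [26.8 to 35.1] and 15.3, a ratio of 2.01 (1.62 to 2.50). CACNB2 and CACNA1G were higher in cluster 10 too, at 2.22 and 2.17 times. In total 4 of 6 measured members were higher in cluster 10 against 11% of all genes, and CACNA1H was lower at 0.559 times (0.378 to 0.814), 1 of 6 against 8.83%. CACNA1C was 19.8 CPM in cluster 10 and 17.1 in cluster 7, a ratio of 1.16 (0.916 to 1.46), and CACNA2D2 was under 10 CPM in both. Marker lists also differed between the 2 clusters. In cluster 10 and cluster 7, the 12 cardiomyocyte markers summed to 14887 and 8012 CPM, the stromal list to 3088 and 1583, the atrial list to 536.5 and 202.0, and the neural list to 297.6 and 94.98. The mitotic list, at 196.6 and 1199 CPM, and the epithelial list, at 1106 and 2244, went the other way. Their part in the member ratios was not tested. The CACNA1D level of cluster 10 lay above that of all cardiomyocyte-like cells.

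Within the cardiomyocytes, the 2 L-type pore genes differed in how far they separated the gates, and CACNA1D had the highest ratios of the 7 members against HEY2-positive cells. CACNA1D was 15.6 CPM [14.9 to 16.3] in HEY2-positive, 32.2 [30.8 to 33.6] in ungated, 84.8 [80.1 to 89.7] in NR2F2-positive and 118 [102 to 137] in SHOX2-positive cells, with no overlap between the intervals of neighbours. NR2F2-positive cells stood at 5.44 times (5.06 to 5.85) and SHOX2-positive cells at 7.59 times (6.48 to 8.84) the HEY2-positive level. CACNA1C spread far less, with 39.9 CPM [38.8 to 41.0] in HEY2-positive, 40.8 [39.2 to 42.3] in ungated, 42.5 [32.8 to 54.1] in SHOX2-positive and 60.8 [56.8 to 65.0] in NR2F2-positive cells. Only the NR2F2-positive interval stood apart from the other 3, at 1.52 times (1.42 to 1.64) HEY2-positive.

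**Figure D2:**
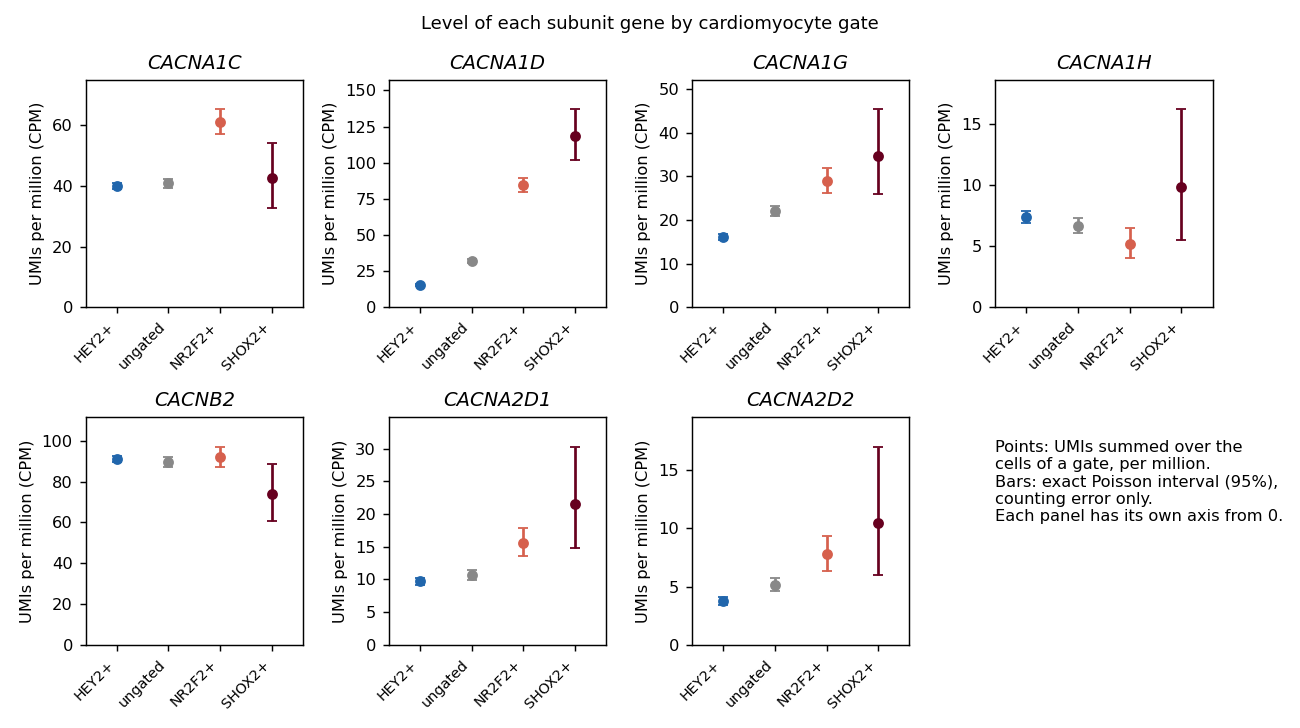
Level of each member (CPM, with exact Poisson intervals) in HEY2-positive, ungated, NR2F2-positive and SHOX2-positive cardiomyocyte-like cells. CACNA1D runs from 15.6 CPM in HEY2-positive to 118 in SHOX2-positive cells, and CACNB2 stays between 73.9 and 91.9 CPM.

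The stretches upstream of these L-type genes are shown because the 2 genes differ so much in how they divide the gates. Each is the 250 bases before the RefSeq start on GRCh38.p14, plus strand, 5′ to 3′, with capitals for the letters AGGTCA, the half-site read by nuclear receptors such as NR2F2, and GGGCGG, the GC box. The CACNA1D window is chr3:53494361-53494610 and the CACNA1C window chr12:2052737-2052986. Neither overlaps an annotated exon, and both lie inside the GENCODE span of their gene, downstream of its first base.
CACNA1D: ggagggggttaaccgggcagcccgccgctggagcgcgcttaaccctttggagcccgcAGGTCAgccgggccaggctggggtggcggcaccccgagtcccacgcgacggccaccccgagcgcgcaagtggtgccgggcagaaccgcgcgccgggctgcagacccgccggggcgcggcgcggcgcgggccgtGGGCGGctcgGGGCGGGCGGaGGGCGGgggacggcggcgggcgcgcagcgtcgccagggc
CACNA1C: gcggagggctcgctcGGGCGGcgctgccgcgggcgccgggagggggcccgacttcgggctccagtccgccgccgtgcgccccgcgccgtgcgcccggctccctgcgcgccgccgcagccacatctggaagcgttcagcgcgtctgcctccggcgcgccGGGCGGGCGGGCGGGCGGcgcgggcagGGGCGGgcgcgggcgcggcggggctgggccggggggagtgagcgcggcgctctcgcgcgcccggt

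Both windows are rich in G and C, at 81.6% for CACNA1D and 85.6% for CACNA1C. The CACNA1D window holds 1 AGGTCA, 193 bases before the start, and 4 GGGCGG at 60, 50, 46 and 39 bases before it. The CACNA1C window holds 6 GGGCGG, several overlapping, and no AGGTCA. Both strands were searched, also for the T-box letters AGGTGT, for the GATA letters AGATAA, for the E-box CACGTG and for the TATA box TATAAA, none of which either window holds. Of 35116 windows of this length in RefSeq, 12.1% hold AGGTCA and 42.6% GGGCGG. A match describes letters and no binding. GENCODE lists 14 start positions of coding transcripts for CACNA1D and 7 for CACNA1C, and which of them these cells use was not tested. Windows were found for 5 of the 7 members, 9 windows in all, and none for CACNA1G or CACNA1H. AGGTCA was held by 1 of the 9, that of CACNA1D, where 12.1% of all windows hold it. The windows of CACNA2D1 and CACNA2D2, at 1.61 and 2.05 times in NR2F2-positive against HEY2-positive cells, held none. Whether these letters bear on the levels in the gates was not tested.

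The T-type genes moved apart in the same comparison. CACNA1G was 16.0 CPM [15.3 to 16.8] in HEY2-positive, 22.0 [20.9 to 23.2] in ungated, 29.0 [26.2 to 31.9] in NR2F2-positive and 34.6 [25.9 to 45.3] in SHOX2-positive cells, the last 2 overlapping. That put NR2F2-positive cells at 1.81 times (1.62 to 2.01) and SHOX2-positive cells at 2.16 times (1.61 to 2.84) the HEY2-positive level. CACNA1H went the other way in NR2F2-positive cells, with 5.15 CPM [4.03 to 6.47] against 7.39 [6.92 to 7.88], a ratio of 0.696 (0.541 to 0.885) that was below the 10 CPM needed to be counted. In SHOX2-positive cells its 15 UMIs gave 9.80 CPM [5.49 to 16.2].

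Among the auxiliary genes, CACNB2 did not separate the gates: 91.0 CPM [89.3 to 92.7] in HEY2-positive and 91.9 [87.0 to 97.0] in NR2F2-positive cells, a ratio of 1.01 (0.953 to 1.07). SHOX2-positive cells had 73.9 CPM [60.9 to 88.8], 0.811 times (0.668 to 0.977) HEY2-positive. CACNA2D1 was 9.71 CPM [9.17 to 10.3] in HEY2-positive, 15.6 [13.7 to 17.8] in NR2F2-positive and 21.6 [14.8 to 30.3] in SHOX2-positive cells, or 1.61 times (1.39 to 1.86) and 2.22 times (1.52 to 3.14). CACNA2D2 followed it at lower counts, with 3.79 [3.45 to 4.14], 7.75 [6.37 to 9.35] and 10.5 CPM [5.98 to 17.0], the last from 16 UMIs, or 2.05 times (1.65 to 2.52) and 2.76 times (1.57 to 4.53).

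By count, 4 of the 5 measured members (CACNA1D, CACNA1G, CACNA2D1 and CACNA1C) were higher in NR2F2-positive than in HEY2-positive cells and 0 lower, against 10.7% and 4.22% of the 8673 genes measured. The median log2 ratio was 0.69 for the members and 0.09 for all genes. TMM scaling subtracted 0.20 from log2 ratios and gave 4.72 for CACNA1D, 1.57 for CACNA1G, 1.40 for CACNA2D1 and 1.32 for CACNA1C. The last 2 were then no longer counted. In SHOX2-positive against HEY2-positive cells (TMM shift 0.22) 4 of 6 measured members were higher (CACNA1D, CACNA2D2, CACNA2D1 and CACNA1G) and 0 lower, against 17% and 9.14% of 8818 genes. Between SHOX2-positive and NR2F2-positive cells 0 of 6 measured members passed the threshold, where 5.54% of genes were higher and 5.55% lower. CACNA1D was 1.40 times (1.19 to 1.63) as high in SHOX2-positive cells there, and CACNA1C 0.698 times (0.534 to 0.899). The SHOX2-positive call of CACNA2D2 rests on 10.5 CPM, just over the 10 CPM minimum. With only cells given to a hashtag, the SHOX2-positive ratios of CACNA1G and CACNA2D2 to HEY2-positive cells were 1.49 each, under the threshold. There was 1 pool and no replicate of it, so these intervals cover counting error only.

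The balance of the 2 L-type genes differed between the gates. CACNA1D supplied 28.1% [27.0 to 29.2] of L-type UMIs in HEY2-positive cells (1940 of 6903), 44.2% [42.7 to 45.6] in ungated, 58.2% [56.1 to 60.4] in NR2F2-positive and 73.6% [67.6 to 79.0] in SHOX2-positive cells (181 of 246). These shares compare UMIs of 2 genes of different length and structure, so they are read across groups and not as a ratio of transcripts. Outside the cardiomyocytes the share was 58.8% [55.2 to 62.4] in stromal-like and 52.1% [45.2 to 59.0] in epithelial-like cells, against 38.6% [37.8 to 39.4] in all cardiomyocyte-like cells. CACNA1G likewise made up more of the T-type UMIs in NR2F2-positive cells, 84.9% [81.4 to 88.0], than in HEY2-positive cells, 68.5% [66.7 to 70.1].

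**Figure D3:**
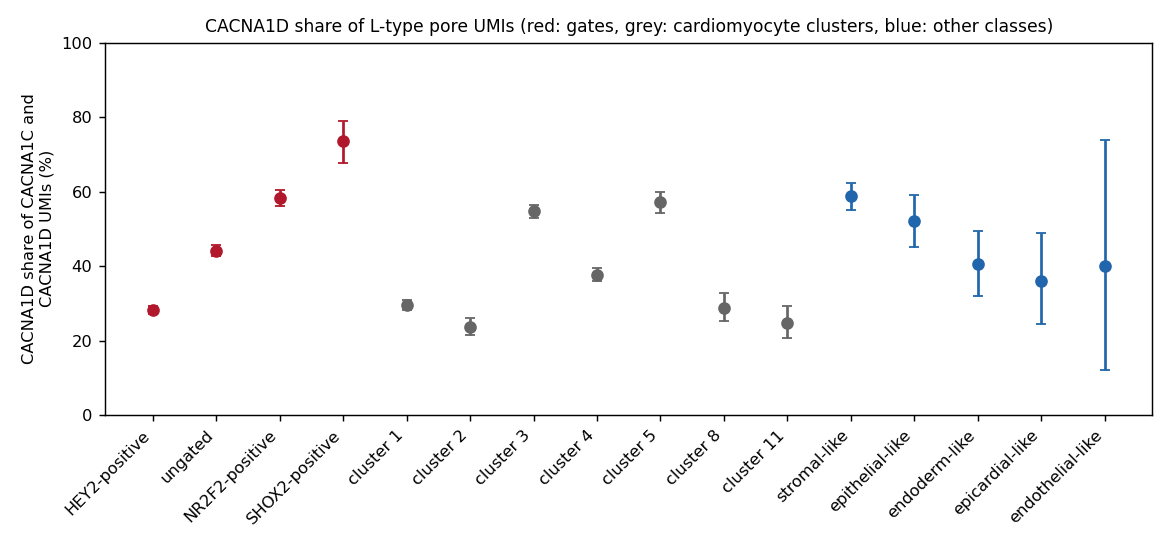
Share of L-type pore UMIs (CACNA1C plus CACNA1D) that came from CACNA1D, in percent, by gate, cluster and class, with exact Clopper-Pearson intervals. The share runs from 23.7% in cluster 2 to 73.6% in SHOX2-positive cells.

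Cells were also binned by marker UMIs. With 0, 1, 2, 3 and at least 4 NR2F2 UMIs, CACNA1D was at 20.3, 29.2, 47.6, 50.1 and 69.4 CPM. CACNB2 over the same bins was 90.3, 91.9, 87.4, 77.2 and 81.8 CPM. From 0 to at least 4 HEY2 UMIs, CACNA1D was at 52.0, 29.1, 20.6, 17.9 and 14.6 CPM and CACNA1G at 26.2, 19.0, 18.4, 17.0 and 15.4 CPM. In their CACNA1D intervals, the bins of 2 and 3 UMIs overlapped for both NR2F2 and HEY2, and the other neighbours did not. Median depth ran from 8845 to 18181.5 UMIs over the HEY2 bins and from 13137 to 10441 over the NR2F2 bins, so the gates were also compared within 3 bands of depth, split at 10030 and 15696 UMIs. CACNA1D in NR2F2-positive against HEY2-positive cells was 4.92 times in the lower, 6.27 in the middle and 3.76 in the upper band. CACNA1G was closer to 1 in each band than in all gated cells, at 1.29, 1.65 and 1.36 times, and under the threshold in 2 of them. CACNA2D1 was 1.89, 1.54 and 1.18 times. Among cells thinned to 3000 UMIs, leaving out 14 HEY2-positive, 13 NR2F2-positive and 5 SHOX2-positive shallower cells, a CACNA1D UMI was found in 4.86% of HEY2-positive, 23.0% of NR2F2-positive and 27.5% of SHOX2-positive cells, and in 2.64% of epithelial-like cells (20.7%, 49.8%, 52.1% and 12.4% unthinned).

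How did the channel genes divide the cardiomyocyte-like clusters? Each of the 7 was set against the other cardiomyocyte-like cells. Cluster 3, led by the natriuretic peptide genes NPPA and NPPB and by NR2F2, held 83.8% of the NR2F2-positive and 83.0% of the SHOX2-positive cells. CACNA1D there was 68.1 CPM, 3.38 times (3.19 to 3.57) the rest, and CACNA1G 30.8 CPM, 1.80 times. These were 2 of 5 measured members, against 7.63% of genes, and 0 were lower, against 4.55%. CACNA2D1 at 1.49 times and CACNA1C at 1.43 times were short of the threshold, and CACNB2 was at 1.05 times. Cluster 5, led by LMOD2 and IRX1, had CACNA1G at 32.9 CPM, 1.88 times (1.72 to 2.04), and CACNA1D at 38.6 CPM, 1.55 times (1.43 to 1.67), also 2 of 5, against 7.36%. CACNA1C was 29.0 CPM in cluster 5 and 56.4 in cluster 3. Its ratio in cluster 5 was 0.677 times (0.619 to 0.738), just short of being counted, so that 0 members were lower, against 4.6% of genes. CACNA2D1 was at 1.42 times and CACNB2 at 1.24. TMM scaling, with a shift of 0.19, put the 3 ratios of cluster 5 at 1.65, 1.36 and 0.595.

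Cluster 1, led by FOSB and ANGPT1, had CACNA1C and CACNB2 at 57.3 and 115 CPM, above but close to CACNA1C in cluster 3 (56.4) and CACNB2 in cluster 5 (109). CACNA1C was counted as higher there at 1.59 times (1.52 to 1.66), 1 of 5 against 4.45% of genes, and at 1.44 under TMM scaling (shift 0.14) it was not. None was lower, against 3.24%. Cluster 2, led by S100A8, FBXL22 and HEY2, was the lowest in CACNA1D, at 8.55 CPM and 0.283 times the rest. CACNA1C and CACNA2D1 were lower there too, at 0.615 and 0.659 times, 3 of 5 members against 12.9% of genes (0 higher, against 0.215%), and 0.724 and 0.776 under TMM scaling (shift -0.24). CACNA1D was also lower in cluster 8, led by the metallothionein genes MT1G and MT2A, at 0.526 times (1 of 5 against 4.45%, with 0 higher against 1.1%), and in cluster 11, led by MT3 and ENO2, at 0.452 times. CACNB2 was lower in cluster 11 as well, at 58.5 CPM and 0.644 times, 2 of 5 against 14.5% (0 higher, against 5.58%), and at 0.693 times under TMM scaling it was not. In the mitotic cluster 4, led by UBE2C, CDK1 and TOP2A, CACNA2D1 was lower at 0.643 times, 1 of 5 against 2.05% (0 higher, against 5.53%), or 0.680 times and not counted under TMM scaling. The measured members not counted ranged from 0.746 to 0.793 times in cluster 4, from 0.785 to 0.876 in cluster 8 and from 0.718 to 1.03 in cluster 11. CACNA1H and CACNA2D2 stayed under 10 CPM in all 7 clusters.

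**Figure D4:**
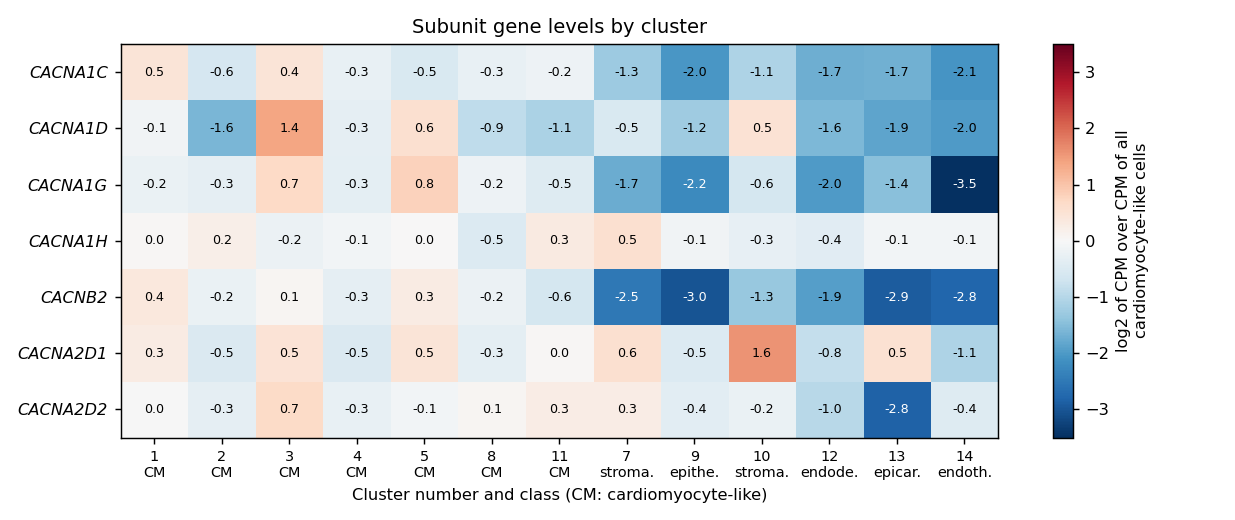
Heat map of the 7 members (rows) over the 13 named clusters (columns, cardiomyocyte-like to the left). Colour and printed value give the log2 of a cluster's CPM over that of all cardiomyocyte-like cells, red above and blue below 0. The CACNA1D row spans the most among the 7 cardiomyocyte-like clusters, from 8.55 CPM in cluster 2 to 68.1 in cluster 3, and the CACNB2 row is blue in all other classes.

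Cells given to a hashtag, 49.2% of all, allowed the same genes to be followed over 13 unassigned samples. In cardiomyocyte-like cells CACNA1D ranged most, from 15.0 CPM in hashtag 6 through a median of 24.6 to 86.9 in hashtag 15, with 67.3 in hashtag 14. The highest was 5.79 times the lowest, and hashtags 14 and 15 stood apart from the other 11. CACNB2 ranged least, from 73.0 CPM in hashtag 6 through 90.9 to 105 in hashtag 10, a ratio of 1.43. CACNA1C ran from 25.5 CPM in hashtag 6 through 39.4 to 58.0 in hashtag 10. CACNA1G ran from 9.83 in hashtag 10 through 18.7 to 31.4 in hashtag 14, with 30.7 in hashtag 15. CACNA2D1 ran from 7.89 through 11.3 to 16.8, CACNA1H from 4.66 through 6.64 to 9.18, and CACNA2D2 from 2.46 through 4.68 to 6.73 CPM.

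The makeup of the hashtags moved with these levels. NR2F2-positive cells were 52.4% of the cardiomyocyte-like cells of hashtag 15 and 31.8% of hashtag 14, with a median of 4.42% over all 13, and SHOX2-positive cells reached 8.42% in hashtag 15. These 2 hashtags also had the lowest median depths, 8262 and 8053 UMIs, against a median of 13361. Cluster 5 made up 63.6% of hashtag 2, 56.8% of hashtag 1 and 35.2% of hashtag 7, with a median of 4.62%. Among HEY2-positive cells alone, over the 10 hashtags with at least 50 of them, CACNA1D ranged from 7.63 CPM in hashtag 9 through 13.0 to 23.1 in hashtag 10.

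Within hashtags, 8 had at least 20 NR2F2-positive and 20 HEY2-positive cells. CACNA1D was higher in NR2F2-positive cells in 8 of 8, at 2.53 times in hashtag 7 (58.5 against 23.1 CPM), 4.30 in hashtag 14 (93.4 against 21.7), 4.46 in hashtag 8 (51.5 against 11.6), 4.66 in hashtag 15 (106 against 22.7), 5.43 in hashtag 3 (68.8 against 12.7), 5.94 in hashtag 9 (45.3 against 7.63), 6.38 in hashtag 5 (85.2 against 13.4) and 6.81 in hashtag 4 (81.3 against 11.9). The NR2F2-positive values, from 45.3 to 106 CPM, did not overlap the HEY2-positive values, from 7.63 to 23.1. The share of all genes that separate in this way was not counted. The pacemaker channel gene HCN4 was also higher in 8 of 8. CACNA1G was less even. It passed 1.5 in 3 of 8 hashtags, with 4.00 in hashtag 14, 2.73 in hashtag 15 and 2.22 in hashtag 7, and was below 1 in 3, with a median of 1.46. Hashtags 14 and 15 held only 35 and 43 HEY2-positive cells, and hashtag 7 only 21 NR2F2-positive cells. With hashtags 14 and 15 left out of the pool, an alternative chosen after seeing the data, CACNA1G was at 1.49 times (1.29 to 1.72) and CACNA1C at 1.48 (1.35 to 1.62), both just under the threshold, while CACNA1D was 4.79 (4.38 to 5.23) and CACNA2D1 1.59 (1.33 to 1.90).

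**Figure D5:**
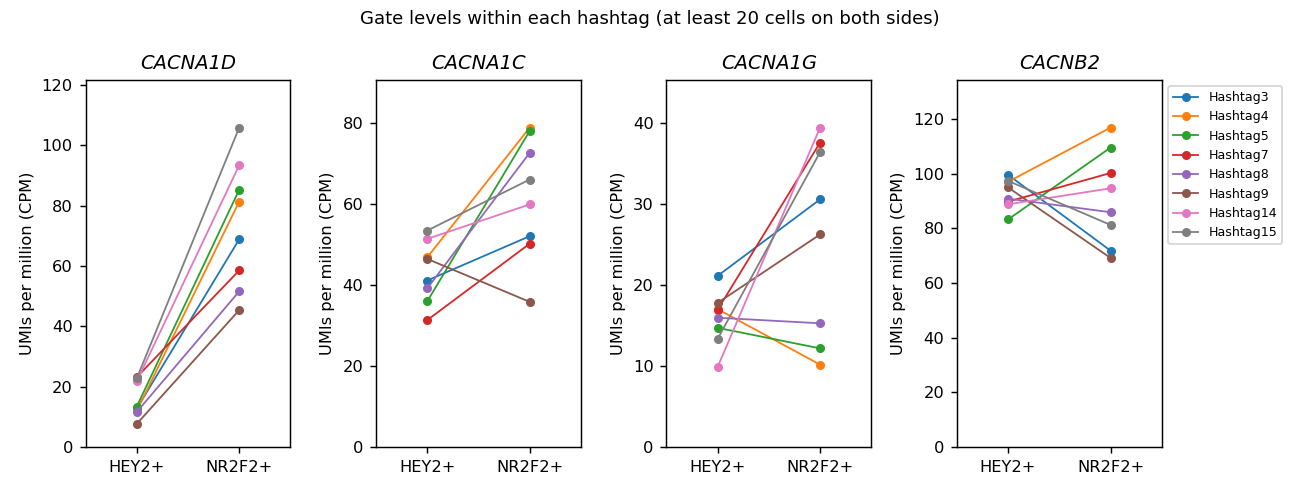
Level (CPM) of CACNA1D, CACNA1C, CACNA1G and CACNB2 in the HEY2-positive and the NR2F2-positive cells of 8 hashtags, with 1 line per hashtag joining its 2 levels and no error bars. All 8 CACNA1D lines climb, from 7.63 to 23.1 CPM on the left to 45.3 to 106 on the right, and the CACNB2 lines go either way.

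The other members within hashtags were as follows. CACNA2D1 was above 1 in 8 of 8 and passed 1.5 in 3, with a range of 1.06 to 2.47. CACNA2D2 passed 1.5 in 6 of 8, with a range of 1.33 to 3.75. In all ratios a side with 0 UMIs was set at 3 UMIs. The NR2F2-positive groups held as few as 21 cells, so the tallies of genes at low levels rest on few cells. CACNA1C passed it in 4 of 8 and CACNB2 in 0, the latter from 0.721 to 1.32 with a median of 1.01. For cluster 5, 10 hashtags had 20 cells on each side. CACNA1G was higher in cluster 5 in 10 of 10, past 1.5 in 8, with a median of 2.21 and a range of 1.20 to 3.27. CACNA1C was below 1 there in 9 of 10, with a median of 0.736. For cardiomyocyte-like against other cells, 12 hashtags had enough of both. CACNB2 passed 1.5 in 12 of 12, from 2.48 to 11.2 times, and CACNA1C and CACNA1G in 11 each. CACNA1D passed it in 7, from 0.528 to 3.70 with a median of 1.65. CACNA2D1 was lower by the same factor in 7 of 12.

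Genes that work with these channels were counted from fixed lists. None of the 6 other pore genes was measured in the comparisons of cardiomyocyte-like cells with other classes or among the gates. Of the 13 other auxiliary genes 3 were measured between cardiomyocyte-like and other cells: the gamma subunit gene CACNG6 was higher at 4.01 times and the beta subunit gene CACNB1 at 3.05 times, and the beta subunit gene CACNB3 was lower at 0.451 times (14.8 CPM in other classes, 6.70 in cardiomyocyte-like cells). Of all genes, 12.7% were higher and 25.1% lower there. CACNB3 was also the 1 of 3 measured that was higher in NR2F2-positive than in HEY2-positive cells, against 10.7% of all genes. Its ratio was 1.91 times (1.59 to 2.29), where CACNB2 was even. In SHOX2-positive cells it was 2.63 times (1.64 to 4.02) the HEY2-positive level, 14.4 against 5.46 CPM.

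Of 21 channel regulators, 12 were measured between cardiomyocyte-like and other cells, with 4 higher and 3 lower, against 12.7% and 25.1% of all genes. RRAD, a small GTPase that restrains L-type current through the beta subunit, was 6.79 times as high in cardiomyocyte-like cells, and JPH2, which ties the surface membrane to the calcium store, 3.81 times. GEM, a GTPase of the same family as RRAD, was lower at 0.217 times, and BIN1, which shapes T-tubules, at 0.193 times. Taken class by class, GEM was measured only in stromal-like cells, where it was higher than in cardiomyocyte-like cells. Between NR2F2-positive and HEY2-positive cells 10 were measured, with JPH2 higher at 1.83 times and AHNAK, a large scaffold that binds the beta subunit, lower at 0.623 times, 1 of 10 each against 10.7% and 4.22% of all genes. In cluster 5, 3 of 11 were higher, against 7.36% of all genes, led by BIN1 at 5.01 times (4.56 to 5.49), which was 35.5 CPM there and 7.09 in other cardiomyocyte-like cells.

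Of 9 genes for calcium release and removal, 8 were measured between cardiomyocyte-like and other cells, and 6 were higher, against 12.7% of all genes. Triadin (TRDN) was 5.57 times as high, the release channel RYR2 4.35 times, the sodium-calcium exchanger SLC8A1 3.35 times and phospholamban (PLN), the brake on the calcium pump, 3.15 times. Sarcolipin (SLN), which brakes the pump in atrial muscle, was lower at 0.0283 times, with 19.6 CPM in the other classes and 0.554 in cardiomyocyte-like cells. Taken class by class, SLN was measured only in epithelial-like cells, where it was higher than in cardiomyocyte-like cells. In NR2F2-positive cells 2 of 7 measured were higher than in HEY2-positive cells, against 10.7% of all genes: the calcium pump gene ATP2A2 at 2.10 times and SLC8A1 at 2.01 times. SHOX2-positive cells had ATP2A2 at 2.81, SLC8A1 at 1.99 and PLN at 1.64 times, 3 of 7 against 17%. Cluster 5 had 3 of 7, against 7.36%: TRDN at 2.06, PLN at 1.71 and ASPH, the junctin and junctate gene, at 1.58 times.

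Across the 13 clusters used in comparisons, the genes most like each member were found by Pearson's r of log2(CPM + 5) over 8485 genes, as a description without a test, since all clusters share 1 library and differ in depth. Nearest to CACNA1C were MYLK3, a cardiac myosin light chain kinase, at 0.955 and PDK1 at 0.951. CACNA1D was closest to VWDE at 0.930 and ADAM23 at 0.919, CACNA1G to ADGRB2 at 0.975 and CCDC69 at 0.969, and CACNB2 to MAN1C1 at 0.979 and LAMA2 at 0.977. CACNA2D1 was closest to ATP7A at 0.936 and MAGI2-AS3 at 0.923, and CACNA2D2 to LZIC at 0.864 and TIMP3 at 0.858. CACNA1H had no close partner, with YWHAE at 0.681 and WDYHV1 at 0.667. Among the members, CACNA1C and CACNB2 were at 0.918 and CACNA1G and CACNB2 at 0.903. Over the 7 cardiomyocyte-like clusters alone, CACNA1D and CACNA1G were at 0.855, and CACNA1C and CACNA1G at 0.133.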

How the data were processed

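The authors deposited 1 matrix of raw UMI counts with 24038 barcodes, 36601 genes and 13 hashtags. The 2 deposited samples are the gene and the hashtag library of 1 pool and share all 24038 barcodes. The matrix was made with Cell Ranger 4.0.0, per the file headers, on hg38, per the submitters' processing notes. Not given in the sources used here: alignment settings, annotation release, strand setting and the cell-calling rule. Without a stated strand, reads of a gene and its overlapping antisense partner cannot be told apart.

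A filter dropped 2415 barcodes with fewer than 500 genes, fewer than 1000 UMIs or a mitochondrial share above 25%. Scrublet (scanpy 1.11.5) then marked 2314 barcodes (10.7%, of 17.3% expected), leaving 19309 cells with 258959915 UMIs, 1000 to 115854 per cell. Doublets may remain. Cells were clustered on 2000 variable genes without the listed genes (30 components, 15 neighbours, leidenalg 0.10.2 at resolution 0.6, seed 0) and named from 14 marker lists. A cell was given a hashtag if it had 20 or more hashtag UMIs and 70% or more of them came from that hashtag.

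UMIs were summed per group of cells and compared as CPM ratios, with exact conditional binomial intervals for ratios, Poisson intervals for levels and Clopper-Pearson intervals for shares, at 95% (scipy 1.17.1, Python 3.11.15). These cover counting error only, and cells of 1 pool are not replicates, so no test was made. On simulated data for NR2F2-positive against HEY2-positive cells (5622 genes, 200 changed), 100% of changed and 0% of unchanged genes passed, and intervals covered 95.4% of true ratios. That simulation held no variation between cells and fewer genes than the 8673 measured in this comparison. How the rule performs near its limits of 10 CPM and 1.5 times, where several members lie, was not tested.

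All 7 members were computed in every comparison and are named where counted, otherwise by name or range. From each pathway list up to 4 genes past 1.5-fold are named, with the 2 genes most like each member among genes outside the lists with at least 20 CPM in some cluster. The members and lists were chosen with earlier results of these data known. Coordinates are from GENCODE 29 and RefSeq on GRCh38. Alternatives were other filters, doublets kept, TMM scaling, CPM without mitochondrial genes, thinning to 3000 UMIs, folds of 1.25 and 2, each hashtag left out, medians over hashtags, Leiden resolutions of 0.3 and 1.0, other gates and 3 bands of depth.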

Additional observations from a re-analysis of the deposited data

Results flagged for a closer look

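The cluster of low depth was kept apart from the named classes, although its 12 cardiomyocyte markers, at 43158 CPM, met the cardiomyocyte-like rule. It held high levels of the channel genes. CACNA1C was 174 CPM, CACNA1D 122, CACNA1G 66.6, CACNA1H 24.7, CACNB2 168, CACNA2D1 35.0 and CACNA2D2 8.80 CPM. Relative to cardiomyocyte-like cells these were 4.18, 4.67, 3.53, 3.49, 1.88, 3.37 and 1.96 times. All 6 measured members were counted as higher, against 46.2% of all genes. TMM scaling subtracted 0.94 from log2 ratios, which gave 2.17, 2.43, 1.84, 1.82, 0.979, 1.76 and 1.02 times. The 1614 cells had a median of 1913 UMIs and 13.2% mitochondrial UMIs, and 1214 of them had fewer than 3000 UMIs. The part of depth and RNA quality in these values was not tested.

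Transcripts annotated inside or opposite the pore genes also had UMIs, in data that no other comparison used. The sense intronic genes CACNA1C-IT1, CACNA1C-IT2 and CACNA1C-IT3 had 397, 134 and 10 UMIs. These lie in introns on the strand of CACNA1C, so their UMIs and those of unspliced CACNA1C RNA cannot be told apart. CACNA1C-IT1 was 1.60 CPM in cardiomyocyte-like cells and 9.75 in the low-depth cluster, and CACNA1C-IT2 0.517 and 4.28. The antisense genes CACNA1C-AS1 and CACNA1C-AS2 had 9 and 60 UMIs, and CACNA1C-AS2 was 1.07 CPM in the other named classes against 0.0961 in cardiomyocyte-like cells. CACNA1G-AS1 had 100 UMIs, 99 of them in cardiomyocyte-like cells and 0 in the other named classes.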

How the results depend on the processing

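CACNA1D in NR2F2-positive against HEY2-positive cells stayed between 3.76 and 6.27 times over 27 alternatives, and in SHOX2-positive against HEY2-positive cells between 4.21 and 9.30 over 26. CACNB2 in cardiomyocyte-like against other cells stayed between 2.85 and 6.13 times, and CACNA1D there between 1.42 and 2.18 over 24, past 1.5 in 17. The count of members higher in NR2F2-positive than in HEY2-positive cells was 4. It became 2 under TMM scaling, without hashtags 14 and 15, with gates of 1 UMI and in the lower depth band, and 1 at a fold of 2, by the median over hashtags and in the upper depth band. CACNA1D was in each of these. The count of lower members there became 1 in the lower depth band (CACNA1H). For SHOX2-positive against HEY2-positive cells the 4 higher members became 2 after thinning and 1 in the upper depth band, where only 9 SHOX2-positive cells remained and CACNA1G reversed to 0.694 (0.0840 to 2.51), and 1 lower member (CACNB2) appeared with stricter gates. They became 3 with only cells given to a hashtag, where CACNA1G and CACNA2D2 were no longer counted and CACNA1H was, at 1.56. CACNA2D2 was also not counted without a cell filter or with a strict one, with doublets kept, after thinning, with gates of 1 UMI or in any depth band. SHOX2-positive against NR2F2-positive cells went from 0 higher to 3 at the lower fold tried and with gates of 1 UMI, 2 without hashtags 14 and 15 or with only cells given to a hashtag, 1 without mitochondrial genes, with stricter gates and in the middle depth band, and 0 to 1 as each hashtag was left out. The count of lower members went from 0 to 1 without a cell filter, at the lower fold tried, without hashtags 14 and 15, with stricter gates and in the middle and upper depth bands, and ranged from 0 to 1 as each hashtag was left out. CACNA2D1 became 1 member lower in cardiomyocyte-like cells at the lower fold tried, with only cells given to a hashtag and by the median over hashtags. The cause was not tested in these cases, apart from the changed folds and the smaller groups. Leaving out hashtags 14 and 15 and using only cells given to a hashtag were chosen after seeing the data. Of the other single-gene ratios, 705 stayed within their counting interval and 71 moved beyond it. The 705 include settings that changed only the fold, where a ratio cannot move. Settings that left out 1 hashtag kept most of the cells.

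The median over hashtags was not run for SHOX2-positive cells, since fewer than 3 hashtags had 20 cells on both sides. No paired analysis was possible because the 2 deposited samples are libraries of the same cells and share only replicate number 1. Ratios within hashtags, which no label ties to a sample, are given in the report as values. CACNA1H and CACNA2D2 were mostly under 10 CPM, so depth limits what can be said of them, and the endothelial-like and SHOX2-positive levels rest on few UMIs.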
